A study of Mus musculus with 111 samples.

Results

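The comparison described here set the right gastrocnemius of mice 7 days after sham surgery against the same muscle of naive mice. Its members were chosen by sample title, and they comprised 14 of the 111 arrays of the series, 7 from each group. All animals were male C57BL/6 mice, and each array held 1 right gastrocnemius, the large ankle-extending calf muscle, from 1 animal. In the sham operation the Achilles tendon was exposed and handled but left uncut. Naive animals had neither treatment nor manipulation, and their samples are labelled day 0. The operated mice were 8 weeks old at surgery. The age of the naive mice is not given in the sources used here, and neither is the clock hour at which any muscle was removed. Ether inhalation followed by ketamine-xylazine is described for tenotomy, the cutting of the tendon. The sources used here do not say whether sham mice received the same anaesthesia. The wider study compared disuse by hindlimb casting with disuse by tenotomy at 2, 7 and 14 days, with sham and naive muscle as controls. Sham muscles were also taken at day 2 (n = 3, with a treatment field that reads n/a although the title says sham) and at day 14 (n = 8).

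The circadian clock is a feedback loop of transcription factors that runs in nearly every cell, including muscle fibres. The activators BMAL1 (gene Arntl) and CLOCK or NPAS2 switch on the Per and Cry genes, whose proteins then repress the activators. A second arm, in which the REV-ERB repressors (Nr1d1, Nr1d2) act on Arntl and Npas2, keeps the activator genes and the Per genes on opposite sides of the daily cycle. Output factors such as DBP, TEF and HLF carry the rhythm to other genes, so the level of a clock transcript in a single muscle depends on the hour at which it was collected.

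The 6 largest differences among the genes that passed the test were all of clock genes. Of 36 clock and clock-output genes tested, 14 passed the test at day 7 (38.9%, against 0.63% of all genes). Of those 14, 12 were lower after sham surgery. These genes were listed with earlier results of these data known, so the counts are descriptive and test nothing. The transcripts for the activators Arntl and Npas2 were higher, and those for Per1, Per2, Per3, Nr1d2, Ciart, Dbp, Tef, Hlf, Usp2, Tspan4, Wee1 and Lonrf3 were lower. Start-site sequences of Ciart, Tef, Per1 and Per3, each of which holds a match to an element named below, are shown first. The loop works through short elements in such regions. The activators bind the E-box (CACGTG), and DBP, TEF and HLF bind the D-box, searched here as TTA, then C or T, then A or G, then TAA. Each line below holds the 250 bases before an annotated start, written along the gene's strand from 5′ to 3′, from RefSeq's GRCm38.p6 table. Capitals mark matches to either element on either strand. Ciart lies at chr3:95882229-95882478 on the minus strand, Tef at chr15:81802423-81802672 on the plus strand, Per1 at chr11:69098699-69098948 on the plus strand and Per3 at chr4:151044666-151044915 on the minus strand. Tef and Per1 have another annotated start that is not printed, whose window holds an E-box for Tef and no match for Per1.
Ciart: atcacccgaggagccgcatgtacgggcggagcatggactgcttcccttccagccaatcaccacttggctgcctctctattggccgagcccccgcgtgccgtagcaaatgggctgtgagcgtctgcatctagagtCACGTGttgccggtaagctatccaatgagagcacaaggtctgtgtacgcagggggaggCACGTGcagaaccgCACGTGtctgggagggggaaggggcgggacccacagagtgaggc
Tef: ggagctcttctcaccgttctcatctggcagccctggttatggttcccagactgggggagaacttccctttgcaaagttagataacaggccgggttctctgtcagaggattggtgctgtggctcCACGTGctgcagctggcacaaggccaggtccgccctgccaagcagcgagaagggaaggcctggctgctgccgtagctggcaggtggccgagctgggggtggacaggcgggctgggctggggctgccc
Per1: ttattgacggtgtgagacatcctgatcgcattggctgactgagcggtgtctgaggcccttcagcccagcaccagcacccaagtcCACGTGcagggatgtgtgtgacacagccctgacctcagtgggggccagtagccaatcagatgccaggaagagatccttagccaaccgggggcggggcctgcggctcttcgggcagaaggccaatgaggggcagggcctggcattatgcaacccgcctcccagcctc
Per3: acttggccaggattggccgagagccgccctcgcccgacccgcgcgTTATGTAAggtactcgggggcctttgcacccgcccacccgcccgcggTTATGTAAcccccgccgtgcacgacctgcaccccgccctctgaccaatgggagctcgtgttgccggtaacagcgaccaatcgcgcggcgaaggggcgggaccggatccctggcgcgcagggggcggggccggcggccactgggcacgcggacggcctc
The Ciart window held 3 E-boxes, beginning 116, 58 and 44 bases before the start. Single E-boxes began 127 bases before the Tef start and 166 bases before the Per1 start. The Per3 window held no E-box and 2 copies of TTATGTAA, a D-box form, beginning 205 and 158 bases before the start. Among all 32851 windows of this length in the table, 6.02% held an E-box and 1.43% a D-box, which by gene is 6.86% and 1.69% of 27025 genes with at least one such window. Of the 14 clock genes that passed, 12 had an entry, and at least one window held an E-box in 5 of them (Ciart, Lonrf3, Per1, Tef and Tspan4) and a D-box in 2 (Lonrf3 and Per3). Of the 30 tested clock genes with an entry 9 had an E-box, since 4 that did not pass also had one (Bhlhe41, Cry1, Klf15 and Pfkfb3). The ROR element is the site of the REV-ERB and ROR receptors. It was searched only as A or T, A, A or T, any base, T, A or G, then GGTCA. That form lay in 0.332% of windows and in none of those of the genes that passed. Looser forms and bases past the start were not searched, so a gene without a match here may still hold the element. Arntl, Npas2, Dbp, Nr1d2, Hlf and Usp2 had an entry without an E-box or a D-box, and Per2 and Wee1 had no entry. These matches are letters in a window and say nothing of which factor was bound in these muscles.

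The values are array signals in arbitrary units, scaled on each array to a trimmed mean of about 100 before deposit. Differences are given as log2 of the signal plus 3.98, with the standard error in parentheses, and always as sham minus naive unless another order is named. The pseudocount shrinks differences of dim genes. Adjusted p-values come from limma with Benjamini-Hochberg adjustment over all 16028 genes tested, and a gene passed when its value was under 0.05. On that rule 101 genes differed between sham muscle at day 7 and naive muscle, which is 0.63% of those tested. Of these, 40 were higher after sham (0.25% of all genes) and 61 lower (0.381%). Only 19 of the 101 differed by 1 or more on the log2 scale, and the median difference of all genes was 0.00. The arrays of the 2 groups did not overlap for 76 genes (0.474%), 28 higher and 48 lower after sham, and 43 of these had also passed the test. Without adjustment 1455 genes had a p under 0.05. Whether the 7 muscles of a group were collected together is not given in the sources used here. The spread behind each limma p-value was estimated within groups over all 111 arrays of the series, not from these 14 arrays alone. It does not cover differences in how whole groups were collected.

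Measures of array quality overlapped between the groups. Median signals ran from 16.9 to 19.9 over the 14 arrays, and the group means differed by -0.13 (exact permutation test over 3432 splits, two-sided p = 0.805, adjusted p = 0.914 over 4 measures). The log2 ratio of 3′ to 5′ probe sets, a sign of RNA integrity, differed by -0.08 for beta-actin (exact p = 0.346, adjusted p = 0.914) and by 0.01 for Gapdh (exact p = 0.677, adjusted p = 0.914). Correlations of log2 signals between arrays were 0.961 to 0.973 within the sham group, 0.969 to 0.975 within the naive group and 0.962 to 0.974 between them. All 10 skeletal fibre markers, such as Acta1 (skeletal actin), Ckm (muscle creatine kinase) and Myh4 (the fastest myosin heavy chain), lay above the array's 40th percentile on all 14 arrays. Markers of other cell types, such as Pecam1 (endothelial) and Dcn (fibroblast), did so too. The mark therefore shows detection and does not identify the tissue.

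Of the 17 core clock genes, 7 passed (41.2%, against 0.63% of all genes), 2 of them higher and 5 lower after sham, and the median difference of the list was -0.13. Both clock lists were chosen with earlier results of these data known, so their shares are descriptive and test nothing. Arntl encodes the partner that every activating clock complex needs. Its signal ran from 47.4 to 75.9 in naive muscle (median 61.5) and from 146 to 202 after sham (median 184). On this probe set all 7 sham arrays lay above all 7 naive arrays. Another probe set for Arntl gave 0.80, with overlapping groups. The difference of 1.45 (SE 0.18) had the smallest adjusted p of any gene, 2.27e-08. Npas2, which can stand in for CLOCK as the partner of BMAL1, ran from 0.309 to 10.4 in naive muscle (median 1.03) and from 11.0 to 29.0 after sham (median 16.3). The groups again did not overlap, with a difference of 1.68 (SE 0.28, adjusted p = 3.48e-05). A second probe set gave 0.77, with overlap. No naive array rose above its own 40th percentile for Npas2 whereas 6 sham arrays did, so the naive level is close to the floor and the size of the difference is uncertain.

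The Per genes, whose proteins form the repressing complex with the cryptochromes, moved the other way. Per2 signals were 49.4 to 89.3 in naive muscle (median 74.4) and 9.21 to 20.8 after sham (median 15.3). Every sham array was below every naive array, and the difference of -1.93 (SE 0.28, adjusted p = 2.39e-06) was the lowest of all 16028 genes. The other probe sets for Per2 gave -1.13 and -0.45, with overlapping groups. Per3 ran from 109 to 189 in naive muscle (median 119) and from 34.7 to 69.5 after sham (median 50.7), without overlap. Its difference was -1.45 (SE 0.19, adjusted p = 9.55e-08), and 5 further probe sets gave differences between -1.20 and -0.50. Per1, the member that also answers to glucocorticoids and other acute signals, had the least secure change of the family. It ran from 84.6 to 282 in naive muscle (median 227) and from 61.5 to 135 after sham (median 85.5), and 3 of the 7 sham arrays lay below the naive range. The difference of -1.06 (SE 0.28) passed with an adjusted p of 0.0498, but it passed in only 8 of 25 alternative analyses, in which its adjusted p reached 0.146.

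**Figure D1:**
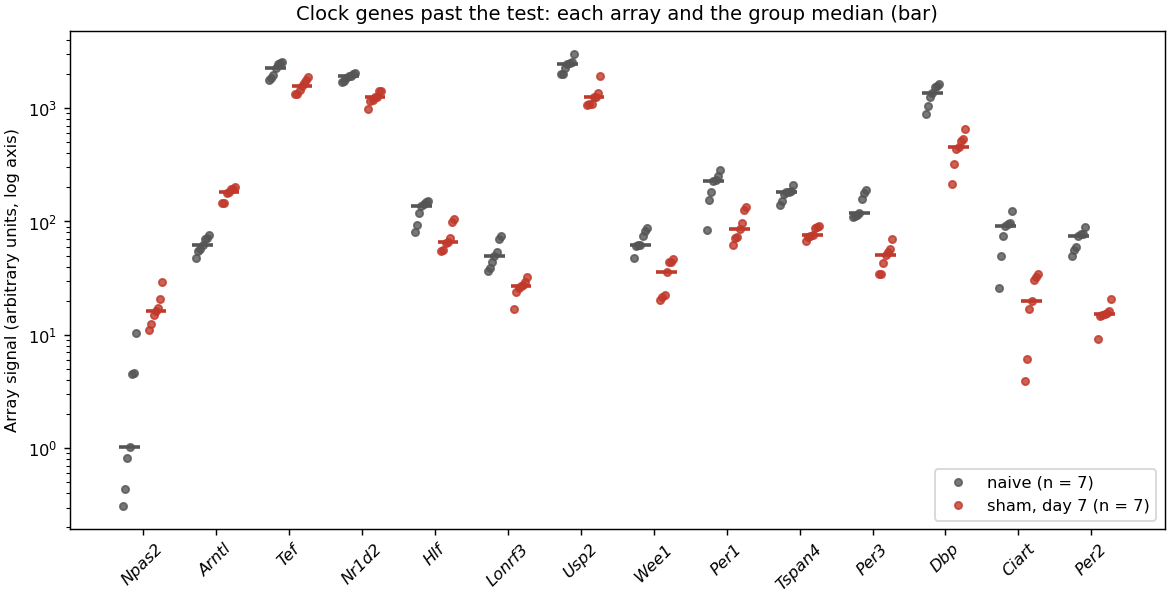
Array signal (arbitrary units, log axis) of the 14 clock and clock-output genes that passed the test, in naive muscle (grey, n = 7) and 7 days after sham surgery (red, n = 7), with each point an array and each bar a group median. Npas2 and Arntl are higher after sham, the other 12 genes are lower, and the arrays of the groups do not overlap for 10 of the 14.

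Further repressors of the loop were lower after sham surgery. Nr1d2 encodes REV-ERB beta, which represses Arntl. Its signals of 1697 to 2042 in naive muscle (median 1910) and 980 to 1408 after sham (median 1244) did not overlap, and the difference was -0.62 (SE 0.09, adjusted p = 2.39e-06). On a second probe set it was -0.26, with overlap. Ciart, a repressor of the CLOCK and BMAL1 pair, ran from 25.8 to 123 in naive muscle (median 91.8) and from 3.92 to 34.5 after sham (median 19.8). Here 4 sham arrays lay below the naive range and 3 lay within it, and the difference was -1.85 (SE 0.30, adjusted p = 1.27e-05). Nr1d1, the gene of REV-ERB alpha, did not pass. It had a difference of 0.59 (SE 0.19, adjusted p = 0.18), with signals of 220 to 427 in naive muscle (median 294) and 383 to 588 after sham (median 457).

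The remaining 10 core genes did not pass. Cry1 and Cry2, the cryptochrome repressors, had differences of 0.47 (SE 0.14, adjusted p = 0.111) and -0.45 (SE 0.14, adjusted p = 0.125). Clock had a difference of 0.29 (SE 0.10, adjusted p = 0.233), and its probe sets disagreed. The others gave 0.78 without overlap, and 0.77 and -0.07 with overlap. Averaged over its probe sets the difference was 0.44 with an adjusted p of 0.00191. Rora, an activator of Arntl, had -0.19 (SE 0.12, adjusted p = 0.685). Its other probe sets ran from -0.43, without overlap, to 0.52, with overlap, and most were below 0. For the repressors Bhlhe40 and Bhlhe41, the kinases Csnk1d and Csnk1e that mark PER proteins for destruction, and Fbxl21, which acts on cryptochromes, differences lay between -0.16 and 0.04. Fbxl21 lay above the 40th percentile on only 1 array of each group.

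Among 20 clock-output genes 8 passed, all lower after sham (40%, against 0.381% of all genes for that direction), with a list median of -0.35. Ciart stands in both lists, which were chosen with earlier results of these data known. Dbp, a transcription factor switched on directly by the clock, had signals of 879 to 1618 in naive muscle (median 1356) and 214 to 651 after sham (median 454). All sham arrays lay below the naive range, and the difference was -1.61 (SE 0.24, adjusted p = 2.39e-06). A second probe set gave -1.75, also without overlap. Usp2, a ubiquitin protease with a strong daily rhythm, ran from 1986 to 3011 in naive muscle (median 2430) and from 1061 to 1922 after sham (median 1254). The groups did not overlap, although sham replicate 4 at 1922 stood well above the next sham array at 1349, and the difference was -0.91 (SE 0.12, adjusted p = 1.49e-07). Tspan4, a membrane protein of the tetraspanin family, ran from 139 to 210 in naive muscle (median 182) and from 67.8 to 90.4 after sham (median 76.0). These groups were also fully apart, with a difference of -1.10 (SE 0.15, adjusted p = 2.26e-07).

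Tef and Hlf are the relatives of Dbp that bind the same D-box. Hlf ran from 80.3 to 152 in naive muscle (median 137) and from 54.9 to 105 after sham (median 66.0), a difference of -0.73 (SE 0.15, adjusted p = 0.00124) with 5 of 7 sham arrays below the naive range. Tef ran from 1775 to 2562 (median 2264) and from 1325 to 1882 (median 1573) in the same order, with a difference of -0.48 (SE 0.11, adjusted p = 0.0133). All 3 members of that family were thus lower. Nfil3, the repressor that competes with them for the D-box, had a difference of 0.75 (SE 0.26) in the opposite direction and did not pass, with an adjusted p of 0.217. It ran from 123 to 175 in naive muscle (median 130) and from 165 to 344 after sham (median 224), so the groups overlapped only slightly. It passed when only the compared groups were fitted (adjusted p = 0.00901).

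Wee1, the cell-cycle kinase whose transcription follows the clock, ran from 48.0 to 87.4 in naive muscle (median 62.1) and from 20.3 to 46.3 after sham (median 36.1). The arrays did not overlap, and the difference was -0.98 (SE 0.22, adjusted p = 0.00854). Lonrf3, a ring-finger protein, had a difference of -0.88 (SE 0.23, adjusted p = 0.0397) without overlap on the probe set used, but 0.17 on its other probe set. Of the other clock-output genes, Klf9 and Tsc22d3, both also induced by glucocorticoids, had differences of -0.32 (SE 0.10) and -0.40 (SE 0.12), each with an adjusted p of 0.0908. Myod1, the myogenic master factor and a clock target in muscle, had 0.48 (SE 0.16, adjusted p = 0.178). Leo1, Klf10, Klf15, Herpud1, Nampt, Pfkfb3, Pdk4 and Ucp3 had differences between -0.38 and 0.34, and none passed.

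The clock genes were among the top of the whole table. They made up 7 of the 10 genes with the smallest p and 8 of the 19 genes that passed with a difference of 1 or more. These counts are descriptive too, since the lists were chosen with earlier results known. The median SD of the 14 genes among animals was 0.31 in naive muscle and 0.32 after sham, against 0.25 and 0.28 for all genes. Sham surgery, anaesthesia, the days between operation and collection, and the hour of collection cannot be told apart in this comparison, because no label gives the hour and each group has a single handling history. Any difference in age or array batch cannot be set apart either, since naive age is not given and batches were not used here.

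**Figure D2:**
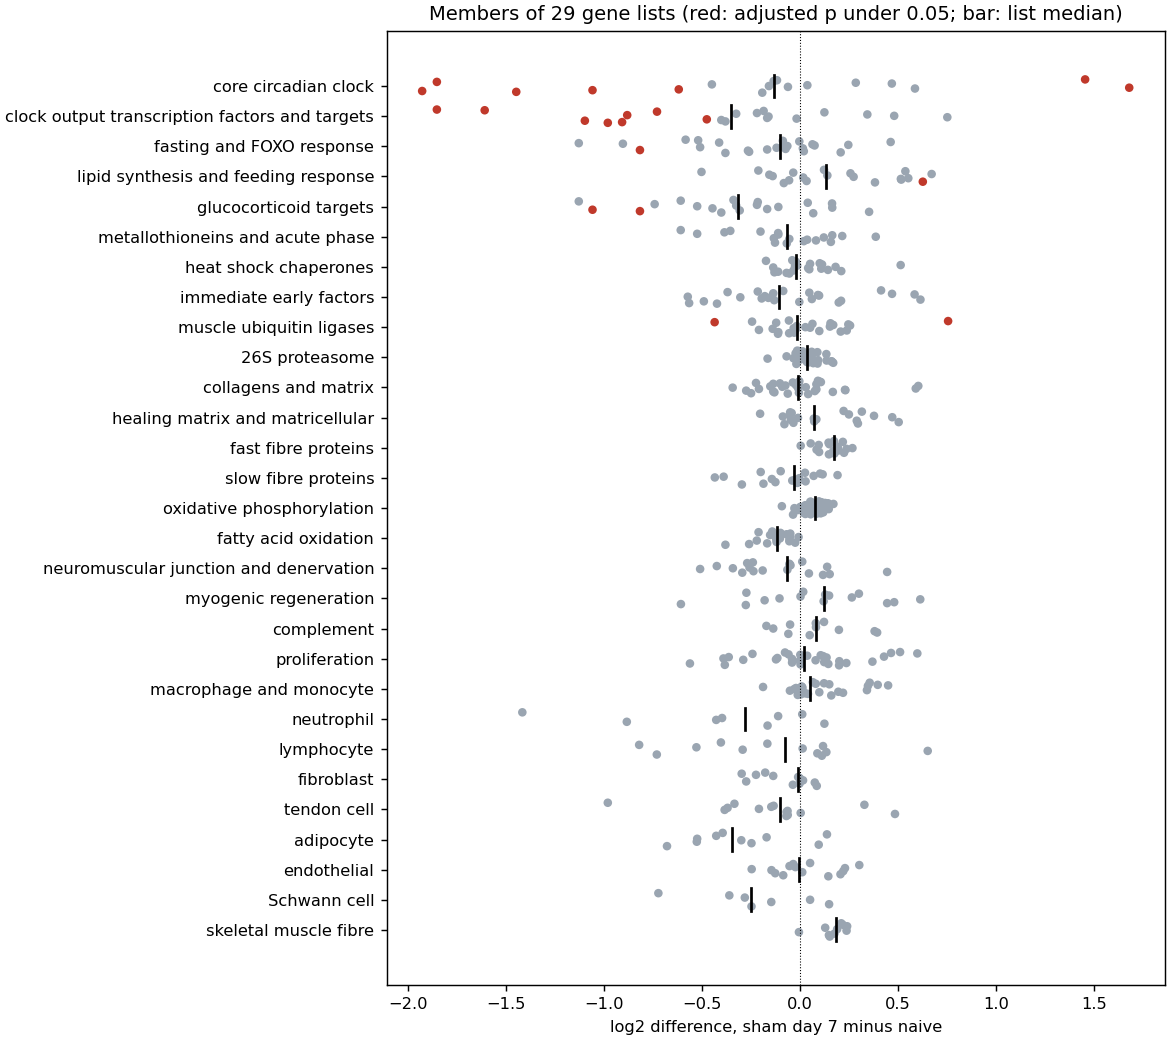
Log2 difference between sham muscle at day 7 and naive muscle (horizontal axis) for the members of 29 of the 45 gene lists examined, with red points for genes of adjusted p under 0.05 and a black bar at each list's median. The red points gather in the clock lists at the top, and 23 of the lists drawn hold none. Of all genes tested 0.63% passed, so most lists of this size would hold none.

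Outside the clock lists 87 genes passed, 38 higher and 49 lower, and 82 genes were in none of the 45 lists. Ppp1r3b, a subunit that brings protein phosphatase 1 to glycogen, ran from 2.21 to 12.2 in naive muscle (median 2.99) and from 13.8 to 26.5 after sham (median 19.4). The groups did not overlap and the difference was 1.39 (SE 0.35, adjusted p = 0.0253), but only 1 naive array was above its 40th percentile. The related glycogen-targeting subunit Ppp1r3c, singled out after its values were seen, ran from 2757 to 5610 (median 3578) in naive muscle and from 4988 to 8419 (median 7011) after sham, with overlap. Its difference was 0.81 (SE 0.17, adjusted p = 0.0031).

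Asb2, a muscle ubiquitin ligase subunit that targets filamins, was one of the brightest genes to pass. It ran from 2789 to 3714 in naive muscle (median 3211) and from 4828 to 6061 after sham (median 5398), without overlap, and the difference was 0.76 (SE 0.14, adjusted p = 3.56e-04). Otub2, a deubiquitinating enzyme, ran from 62.5 to 101 (median 76.0) and from 109 to 190 (median 145) in naive and sham muscle, and its difference was 0.83 (SE 0.16, adjusted p = 6.21e-04). The mitochondrial nucleotide carrier Slc25a36 had 0.66 (SE 0.11, adjusted p = 1.25e-05) and the heparan sulphate proteoglycan Sdc4 0.59 (SE 0.10, adjusted p = 2.90e-05). Cpeb1, which governs poly(A) tail length, the kinase Dyrk2, the phosphatase Ptpn4, Ahdc1 and Cyp4f13 were higher by 0.47 to 0.68 without overlap. Ahdc1 had another probe set at -0.12, and Cyp4f13 passed in only 12 of 25 alternative analyses. Other probe sets gave 0.13 to 0.37 for Dyrk2 and 0.52 for Ptpn4, all with overlap.

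Adh1, an alcohol and retinol dehydrogenase, ran from 372 to 572 in naive muscle (median 508) and from 194 to 283 after sham (median 232). No sham array reached the naive range, and the difference was -1.04 (SE 0.18, adjusted p = 4.29e-05). The flavin monooxygenase Fmo2 had -0.81 (SE 0.14, adjusted p = 1.56e-04) and the glutathione transferase Gstt2 -0.76 (SE 0.15, adjusted p = 0.00125), both without overlap. Other probe sets for Fmo2 gave -0.86 to 0.02, with overlap. Fmo1 and the epoxide hydrolase Ephx1, both singled out after their values were seen, and the sulphotransferase Sult1a1 also passed, at -0.45 (SE 0.09), -0.50 (SE 0.09) and -0.82 (SE 0.19). Mid1ip1, a partner of acetyl-CoA carboxylase in fat synthesis, ran from 812 to 1203 (median 943) in naive muscle and from 401 to 571 (median 486) after sham, a difference of -0.98 (SE 0.15, adjusted p = 7.03e-06) with no overlap. Gm266 was lower by -1.34 (SE 0.27, adjusted p = 0.00105), and after sham no array was above its 40th percentile for it.

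The following genes were picked from those that passed after their values were seen. The Wnt receptor Fzd4 had a difference of -0.71 (SE 0.14, adjusted p = 9.89e-04), and the kinase Snrk, a relative of AMP-activated kinase, -0.73 (SE 0.11, adjusted p = 3.36e-06). Met, the receptor of hepatocyte growth factor, had -0.59 (SE 0.11, adjusted p = 6.52e-04). The eosinophil attractant Ccl11 had -0.81 (SE 0.17, adjusted p = 0.00246), with signals of 132 to 173 in naive muscle and 50.3 to 133 after sham. In the other direction the phosphodiesterase Pde4b had 0.62 (SE 0.14, adjusted p = 0.008) and the kinase Pim1 0.67 (SE 0.18, adjusted p = 0.0425).

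The lists linked to nutrients and steroids are read against the 0.63% of all genes that passed. In the list of fasting and FOXO response genes 1 of 24 passed (4.17%), Plin5, a coat protein of lipid droplets, at -0.82 (SE 0.21, adjusted p = 0.0337). It passed in 16 of 25 alternatives. Among 20 genes of lipid synthesis and the feeding response, 1 passed (5%), Srebf1, the insulin-responsive regulator of fat synthesis, at 0.63 (SE 0.13, adjusted p = 0.00184). Its signals were 294 to 396 in naive muscle (median 325) and 329 to 650 after sham (median 577), with overlap. Of 20 glucocorticoid targets 2 passed (10%), Per1 and Sult1a1, both lower, and the list's median was -0.32. Per1 is already counted among the core clock genes, and it passed in only 8 of 25 alternatives. Fkbp5, the classical steroid-induced immunophilin, had a difference of 0.16 (SE 0.23, adjusted p = 0.909).

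Of 25 muscle ubiquitin ligases 2 passed (8%, against 0.63% of all genes), Asb2 higher and Cblb lower at -0.44 (SE 0.11, adjusted p = 0.0239, passing in 14 of 25 alternatives). Fbxo32 and Trim63, the ligases atrogin-1 and MuRF1 that mark atrophy, had differences of 0.25 (SE 0.23, adjusted p = 0.848) and 0.21 (SE 0.15, adjusted p = 0.76). Other probe sets for Fbxo32 gave 0.62 and 0.26, with overlap. None of the 36 genes of the 26S proteasome passed, and their median was 0.03. The same held for 31 autophagy genes (median 0.00), 42 genes of oxidative phosphorylation (median 0.08), 18 fast fibre genes (median 0.17) and 18 slow fibre genes (median -0.03). Myh4 had 0.19 (SE 0.20) and Myh7, the slow myosin, -0.39 (SE 0.35). For denervation and regeneration, Chrna1, an acetylcholine receptor subunit, had -0.27 (SE 0.16, adjusted p = 0.65), Myog 0.45 (SE 0.17, adjusted p = 0.329) and the embryonic myosin Myh3 0.61 (SE 0.37, adjusted p = 0.677).

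None of 32 collagen and matrix genes passed (median -0.01), and none of 20 healing-matrix genes (median 0.07). Col1a1 ran from 1973 to 3681 in naive muscle (median 2889) and from 822 to 4142 after sham (median 3210), with a difference of -0.22 (SE 0.29, adjusted p = 0.898). Postn, a matrix protein of healing tissue, ran from 125 to 283 (median 180) and from 72.4 to 722 (median 179), with a difference of 0.08 (SE 0.37, adjusted p = 0.977). The sham arrays of both genes were more widely scattered than the naive ones, on both sides of the naive range. Outside these lists, 3 matrix-related genes that passed were singled out after their values were seen: Timp3, a metalloproteinase inhibitor, at -0.53 (SE 0.11, adjusted p = 0.00332), the metalloproteinase Adam19 at 0.73 (SE 0.17, adjusted p = 0.00901) and the secreted matrix protein Spon2 at 1.15 (SE 0.26, adjusted p = 0.008). In all, 28 of the 34 pathway lists held no gene that passed, with medians between -0.16 and 0.17. Only 0.63% of all genes passed, so most lists of this size would hold none. The empty lists therefore say little of their members.

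None of the 11 lists of cell type markers held a gene that passed, and their medians lay between -0.35 and 0.25. With 0.63% of all genes passing, lists this short would mostly hold none. Their emptiness therefore says little of the cell make-up. In bulk muscle, fewer cells of a type and less RNA per cell cannot be told apart. Of 26 macrophage and monocyte markers 20 had a difference above 0, with a median of 0.05 and summed signals of 2258 to 3129 in naive muscle and 1962 to 3586 after sham. Cd68 had 0.01 (SE 0.25, adjusted p = 0.996) and Lyz2 0.22 (SE 0.24, adjusted p = 0.881). The adipocyte list had the lowest median, -0.35, with 8 of 10 members below 0. Its summed signals ran from 18723 to 22693 in naive muscle and from 15999 to 24889 after sham. Car3, with a median signal of 14300 in both groups, made up most of these sums, so they say little of the other members. Its signal lay within the range of the skeletal fibre markers, whose naive medians ran from 5808 (Neb) to 18200 (Tnnt3). Whether it came from adipocytes or from fibres was not tested. Adipoq, the adipocyte hormone adiponectin, had -0.39 (SE 0.38, adjusted p = 0.849). Of 14 tendon cell markers 11 were below 0, with summed signals of 4144 to 5936 and of 3397 to 5436. The skeletal fibre markers had a median of 0.18, 9 of 10 members above 0 and summed signals of 134807 to 177856 in naive and 120085 to 218167 in sham muscle. The part of these marker levels in the 101 differences was not tested.

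Sham muscle at day 7 was next set against the other sham days, which share the operation but not the time since it. Between day 7 and day 14, 6 genes passed (0.0374%), 3 higher and 3 lower at day 7, and 1712 genes had an unadjusted p under 0.05. Between day 7 and day 2, 2 genes passed (0.0125%), both higher at day 7, with 915 at an unadjusted p under 0.05. None of the 101 genes that differed from naive muscle passed either of these tests by limma; their differences were -0.85 to 0.90 against day 14 (smallest adjusted p = 0.0989) and -1.41 to 1.09 against day 2 (smallest adjusted p = 0.19). With 3 muscles at day 2, that comparison could miss sizeable differences. Arntl at day 7 minus day 14 was 0.17 (SE 0.17, adjusted p = 0.788), Per2 0.08 (SE 0.28, adjusted p = 0.957), Per3 -0.18 (SE 0.18, adjusted p = 0.789) and Dbp -0.23 (SE 0.23, adjusted p = 0.791). Against day 2 the same genes had 0.75 (SE 0.23), -0.64 (SE 0.37), -0.76 (SE 0.24) and -0.88 (SE 0.31), with adjusted p-values of 0.478, 0.933, 0.506 and 0.617.

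Each sham day can also be set against the naive muscles, which all 3 comparisons share. At day 14, 363 genes passed (2.26%), 163 higher and 200 lower than naive. Arntl had a difference of 1.28 (SE 0.17) at day 14 beside 1.45 at day 7, and Npas2 1.71 (SE 0.27) beside 1.68. Per2 had -2.01 (SE 0.28) beside -1.93, Per3 -1.27 (SE 0.18) beside -1.45 and Dbp -1.38 (SE 0.23) beside -1.61. Nr1d2 had -0.53 (SE 0.09) beside -0.62, and Usp2 -1.04 (SE 0.12) beside -0.91. All 7 genes passed on both days. At day 2 no gene passed by limma (0%), with 1120 at an unadjusted p under 0.05. The 3 day-2 arrays differed from one another for the activator genes and Per2. Arntl read 57.3, 102 and 184 on replicates 2, 1 and 3, so that 1 array lay in the naive range and 1 in the range of day 7. Per2 read 47.4, 17.3 and 19.5 on the same arrays in that order. Dbp, at 715, 836 and 793, was below the naive range and above the range of day 7 on every one of them, and Per3, at 85.0, 83.8 and 83.0, also lay between the naive and the day-7 ranges, though within that of day 14 (41.4 to 92.3).

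**Figure D3:**
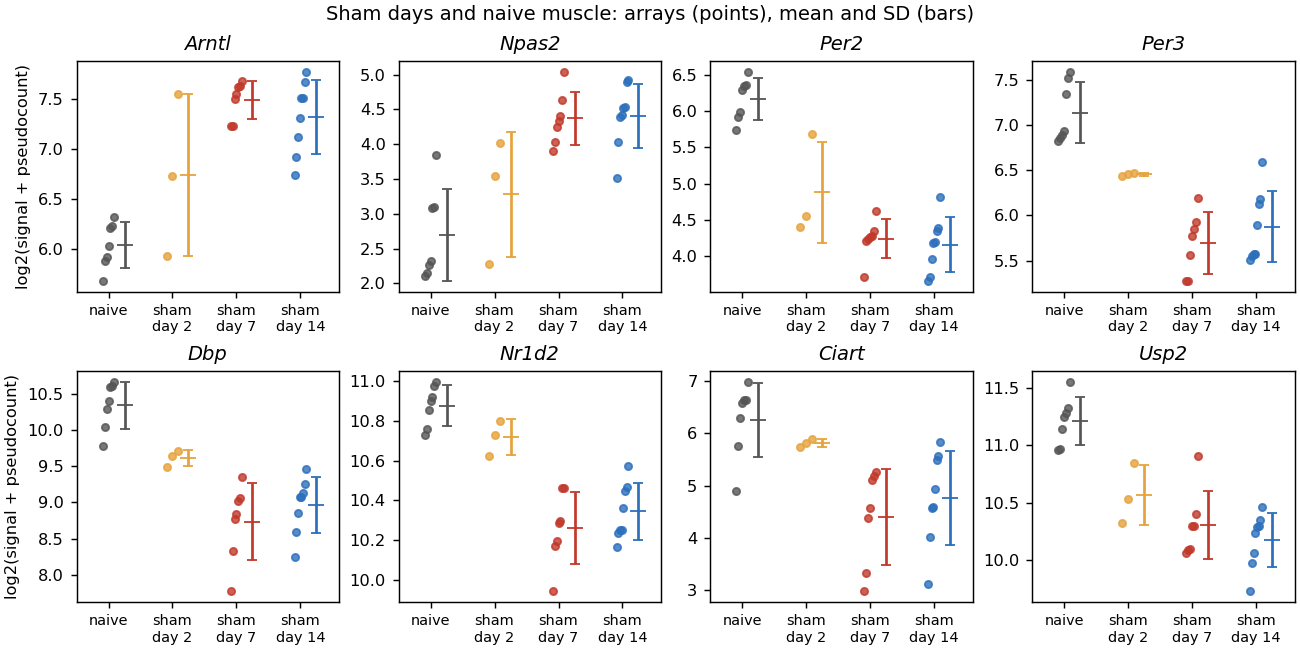
Log2 of signal plus pseudocount for 8 clock genes in naive muscle (n = 7) and in sham muscle at day 2 (n = 3), day 7 (n = 7) and day 14 (n = 8), with points for arrays and bars for mean and SD. The day-7 arrays lie apart from the naive arrays for 7 of the 8 genes (not Ciart), and the 3 day-2 arrays of Dbp and Per3 fall between the day-7 and the naive arrays.

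The levels of Arntl, Per2 and Dbp were placed in order over all 16 groups of the series. The mean log2 level of Arntl in sham muscle at day 7 was 7.50 (SD 0.19, n = 7), which ranked 6 of 16 and lay among the 6 casting groups (7.40 to 7.64), within their spread. Sham day 14 had 7.32 (SD 0.37, n = 8) and sham day 2 had 6.74 (SD 0.81, n = 3). Naive muscle had 6.04 (SD 0.23, n = 7), between the tenotomy day-7 groups (6.51 and 6.65) and those of days 2 and 14 (5.50 to 5.87). For Per2 the naive and tenotomy groups stood above the casting and sham groups, the reverse of Arntl. Within the casting and sham groups the order was not reversed. Casting treatment day 2 ranked 1 for Arntl and 8 for Per2. Sham day 14 was lowest for Per2 at 4.16 (SD 0.38), sham day 7 next at 4.24 (SD 0.27), and naive muscle had 6.17 (SD 0.29), rank 5 of 16. For Dbp, naive muscle ranked 2 of 16 at 10.34 (SD 0.33) and sham day 7 ranked 15 at 8.73 (SD 0.53), while the 6 casting groups lay between 8.53 and 9.11. For Arntl, sham day 7 differed from its neighbours in the order, casting control day 7 (7.55) and casting control day 2 (7.40), by less than its SD, and for Per2 and Dbp its neighbours also lay within its SD. The mean of Arntl was 7.40 to 7.62 in casting controls and 5.50 to 6.51 in tenotomy controls. For tenotomy, the labels give the left leg as treated whereas the study's design text names the right tendon as cut, so which of these legs was operated is unsettled here.

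**Figure D4:**
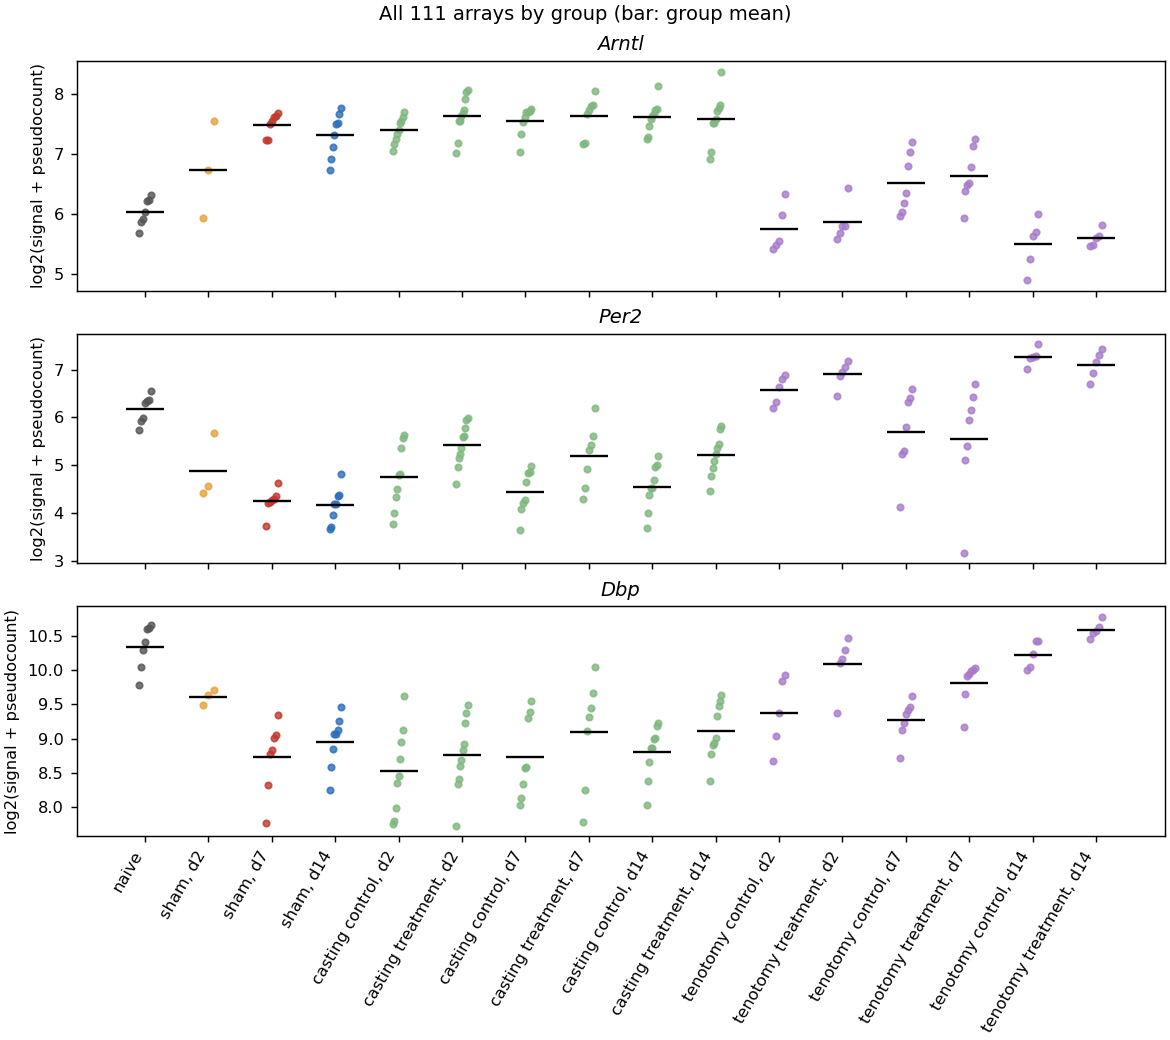
Log2 of signal plus pseudocount for Arntl, Per2 and Dbp on all 111 arrays, by group as labelled (grey naive, orange, red and blue sham days, green casting, purple tenotomy), with a bar at each group mean. For Arntl the sham day-7 mean of 7.50 lies among the casting groups and the naive mean of 6.04 lies among the tenotomy groups, whichever leg was taken.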

How the data were processed

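RNA of single mouse muscles was hybridised to 1-colour Affymetrix arrays. The authors deposited linear signal intensity values of 45101 probe sets, made with MAS5 and GCOS per the submitters' processing notes. The aligner of probes to genes and the build are not given in the sources used here. Every array had a 2% trimmed mean of 99.95 to 99.97. A platform annotation table gave 34945 probe sets 1 gene, 932 several and 9160 none; 64 were controls. The probe set with the highest mean stood for its gene. A gene was tested if at least 5 arrays read above their own 40th percentile (16028 of 18193 genes). The test was limma 3.58.1 in R 4.3.3 on log2(signal + 3.98, the 20th percentile of all signals), with 16 group means over all 111 arrays, an intensity trend and the animal as a random block (correlation 0.0963). Array number limits the precision.

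The members and gene lists were chosen with earlier results of these data known. Genes named are the 12 in each direction with the largest difference among those that passed without overlap, all tested members of both clock lists, up to 2 members of each other list that passed, and 18 fixed wasting, stress, repair and fibre genes; others are said to be chosen after their values were seen. The script was tested on simulated data. Alternatives were pseudocounts of 1 and 16, no filter, a stricter filter, quantile normalization, averaging each gene's probe sets, only the groups compared, no animal block, array weights, no trend, a replicate block and leaving out each array. Same-numbered sham and naive arrays did not deviate together (correlations -0.061 to 0.031 over 7 pairs, none over 0.1), so the numbers do not pair the animals. Scan dates and batches were not used here.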

Additional observations from a re-analysis of the deposited data

Results flagged for a closer look

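Of 152 groups of values, 6 held an array whose distance from the rest of its group passed the 95% critical value of Dixon's test, and chance flags about 1 group in 20. Usp2 read 1922 on 1 sham day-7 array against 1061 to 1349 on the other 6. Klf10 read 247 and Myh3 241 on 1 sham day-7 array each, and neither gene passed the main test. Low arrays of the naive group were found for Bhlhe41 at 58.3, Klf15 at 129 and Tnc at 34.8, none of which passed either.

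Between sham day 7 and sham day 14, limma passed 6 genes. BC005537 had a difference of 0.36, Icmt 0.48 and Nudcd3 0.45 (day 7 higher), and Dus3l -0.38, Mgat4b -0.44 and H2bc18 -1.27 (day 7 lower). Nudcd3 signals were 505 to 575 at day 7 and 288 to 462 at day 14, without overlap, and 419 to 597 in naive muscle. Dus3l ran from 174 to 231 at day 7 and from 245 to 296 at day 14. H2bc18, with day-7 signals of 0.578 to 12.7, was close to the floor. Between sham day 7 and sham day 2, Acox3 at 1.01 and Vps53 at 0.63 passed, with Vps53 signals of 171 to 257 at day 7 and 114 to 138 on the 3 day-2 arrays. These genes were not in the clock lists.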

How the results depend on the processing

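The count of genes that differed between sham day 7 and naive muscle stayed within 1.5 times of 101 under all alternatives, from 79 to 141, but not all of the same genes: of the main 101, 59 also passed with the replicate block, 62 with each gene's probe sets averaged, 71 with only the groups compared, 84 to 101 with the other settings that kept all arrays, and 73 to 92 when 1 array was left out. Clock genes that passed numbered 11 to 16 of 36. With the replicate block, which the numbers do not justify as a pairing, 95 genes passed, and the day-14 count against naive was 236. The counts between sham days were less stable. For day 7 against day 14 (6 genes) they were 0 with only the groups compared, 0 with the replicate block, 15 with array weights, and 4 to 22 when 1 array was left out, with 22 without sham day-7 replicate 7, 16 without replicate 1 and 10 without replicate 2. For day 7 against day 2 (2 genes) they were 5 with pseudocount 1, 1 with pseudocount 16, 5 with quantile normalization, 0 with each gene's probe sets averaged, 0 with only the groups compared, 4 with array weights, 1 with the replicate block, and 1 to 6 when 1 array was left out. For day 2 against naive (0 genes) they were 3 with pseudocount 1, 1 with the stricter filter, 5 with only the groups compared, 4 with the replicate block and 0 to 3 when 1 array was left out; these and the day-14 alternatives were added after the data were seen, as was leaving out day-14 replicate 8, whose median signal stood above the rest (24.7 against 20.4 for the next), which gave 267 for day 14 against naive and 4 for day 7 against day 14. The cause of these shifts was not tested.

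Of the 33 named genes that passed, 21 passed under every alternative. Least stable were Per1 (8 of 25), Cyp4f13 (12), Cblb (14), Lonrf3 (15), Plin5 (16), Ppp1r3b (18 of 24) and Tef (21). Changes of sign touched only genes that had not passed. With each gene's probe sets averaged Pfkfb3 was 0.01 and Tnc 0.02. When 1 array was left out, values ran from -0.23 to 0.11 for Fbxl21, -0.04 to 0.22 for Klf10, -0.36 to 0.04 for Pdk4, -0.21 to 0.09 for Pfkfb3, -0.14 to 0.34 for Mt2, -0.35 to 0.03 for Col1a1, -0.23 to 0.09 for Col3a1, -0.24 to 0.06 for Tnc, -0.23 to 0.31 for Postn and -0.09 to 0.16 for Cd68. Npas2, Ppp1r3b and Gm266 lie near the floor, where the size of a difference depends on the pseudocount.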
